A study of Mus musculus with 12 samples.

Results

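The isocitrate dehydrogenases and the D-2-hydroxyglutarate dehydrogenase were described by 6 genes, Idh1, Idh2, Idh3a, Idh3b, Idh3g and D2hgdh, which were chosen by symbol from 21807 gene IDs counted in 12 mouse liver libraries. Each of the 6 symbols stood on 1 ID, and all 6 genes passed the filter on low counts at both stages. The libraries came from C57BL/6J mice in 4 groups of 3: NICD1/Akt livers at 2 and at 3 weeks after hydrodynamic tail vein injection (HTVi), and healthy livers as controls of each stage. The growth protocol describes the controls as mice without HTVi, while the sample labels put them, too, at 2 or 3 weeks post-HTVI, and here they are read as uninjected. NICD1/Akt mice received 10 µg of a plasmid for NICD1, the intracellular and constantly active part of the Notch1 receptor, 10 µg of a plasmid for myr-AKT, a myristoylated Akt kinase that is held at membranes, and the Sleeping Beauty transposase, an enzyme that moves both transgenes into the genome of the liver cells reached. Mice were injected when 5 weeks old, no age is given for the controls, and the samples labelled NICD1/Akt are excised cholangiocarcinoma (CCA) tissue while the control samples are whole liver. The comparisons asked how the RNA of these enzymes differed between tumor tissue and healthy liver at an early and an advanced stage of CCA. No label says whether a library is 1 animal or a pool, so p-values measure the spread between libraries.

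Isocitrate dehydrogenases turn isocitrate into 2-oxoglutarate. Idh1 in the cytosol and peroxisome and Idh2 in mitochondria are NADP-dependent homologues that make NADPH, whereas the NAD-dependent enzyme of the tricarboxylic acid (TCA) cycle is a separate complex of a catalytic alpha subunit (Idh3a) with beta (Idh3b) and gamma (Idh3g) subunits. D2hgdh oxidises D-2-hydroxyglutarate, a reduced relative of 2-oxoglutarate, back to 2-oxoglutarate in mitochondria. IDH1 and IDH2 are known in human intrahepatic CCA for mutations that make the enzyme produce D-2-hydroxyglutarate, which competes with 2-oxoglutarate at dioxygenases that demethylate DNA and histones. The counts analysed here measure RNA and carry no information on such mutations.

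In the GENCODE M21 annotation of GRCm38, Idh1 lies at chr1:65158616-65186500 on the minus strand, Idh2 at chr7:80094846-80115392 on the minus strand, Idh3a at chr9:54586334-54604661 on the plus strand, Idh3b at chr2:130279309-130284547 on the minus strand, Idh3g at chrX:73778963-73786897 on the minus strand and D2hgdh at chr1:93824909-93852348 on the plus strand. Idh3b shares 5 exonic bases with Nop56 on the opposite strand, and the other 5 genes share none with another gene. RefSeq promoter sequences (GRCm38.p6) were at hand for 5 of the 6 genes, not for Idh3a. Those of Idh1, Idh2 and D2hgdh are shown because Idh1 and Idh2 moved in opposite directions and D2hgdh acts on the product of their mutant forms. Each is the longest stretch of the 250 bases before the RefSeq start that lies outside annotated exons, 5′ to 3′ along the gene, and capitals mark TGGGAA or its reverse complement, the core letters bound by RBPJ, the DNA-binding partner of NICD1.
Idh1, chr1:65186501-65186682, minus strand: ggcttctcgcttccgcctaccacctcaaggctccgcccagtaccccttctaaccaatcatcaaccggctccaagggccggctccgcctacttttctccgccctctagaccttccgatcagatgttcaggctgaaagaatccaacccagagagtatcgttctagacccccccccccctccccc
Idh2, chr7:80115393-80115600, minus strand: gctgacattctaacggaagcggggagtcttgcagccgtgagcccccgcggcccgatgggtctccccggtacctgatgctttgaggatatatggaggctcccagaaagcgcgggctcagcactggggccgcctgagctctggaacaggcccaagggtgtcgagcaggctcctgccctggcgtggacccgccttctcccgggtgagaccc
D2hgdh, chr1:93825052-93825239, plus strand: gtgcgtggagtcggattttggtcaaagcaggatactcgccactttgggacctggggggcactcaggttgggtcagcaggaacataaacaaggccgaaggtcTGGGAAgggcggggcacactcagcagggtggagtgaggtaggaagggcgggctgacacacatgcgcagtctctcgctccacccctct
Over the full 250 bases, TGGGAA was found on either strand in 21.6% of 32851 promoters. D2hgdh held 2 matches, 1 of them in the stretch shown, and the windows before both RefSeq starts of Idh1 and those of Idh2, Idh3b and Idh3g held 0. The D2hgdh stretch precedes its RefSeq start but lies within the gene as annotated in GENCODE M21, after the gene start at 93824909. The GC box GGGCGG, found in 32.7% of promoters, was present 2 times each before the upstream start of Idh1, Idh2 and D2hgdh and 0 times before Idh3b and Idh3g. CCAAT, found in 33.8%, was present 1 time each before that start, Idh2 and Idh3b. A match is a description of letters and not a binding site.

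The 12 libraries held 13136892 to 19594839 gene counts. At 3 weeks Notch1 was at 42.1 to 45.5 CPM (counts scaled to a common library total) in controls and 325 to 412 CPM with NICD1/Akt, and Akt1 was at 74.5 to 85.3 and 594 to 850 CPM, in the direction of the labels. At 2 weeks the library labelled control 32 stood apart from controls 30 and 31 and within the range of the NICD1/Akt libraries, with Notch1 at 106 CPM against 49.1 and 53.8 CPM, and Akt1 at 381 CPM against 90.9 and 90.1 CPM. NICD1/Akt library 35 stood above libraries 33 and 34, with Akt1 at 927 CPM against 285 and 325 CPM. Ddx3y, on the Y chromosome, stood at 120 to 126 CPM in controls of 3 weeks and at 52.2 to 61.2 CPM in NICD1/Akt livers of 3 weeks. It was at 57.2 CPM in control 32, but at 0 to 0.398 CPM in the remaining 5 libraries of 2 weeks. Sex and stage thus cannot be told apart between 3 and 2 weeks, although the methods name males. In bulk tissue, fewer cells of a type and less RNA per cell cannot be told apart. At 3 weeks 7 of 9 hepatocyte markers were lower and 0 higher in NICD1/Akt livers, with a summed level of 25650 to 40110 CPM against 106700 to 110500 CPM in controls, and 7 of 7 cholangiocyte markers were higher, with 3501 to 4121 against 92.9 to 135 CPM. Markers of monocytes and macrophages (8 of 8) and of the cell cycle (8 of 8) were also higher. Those of Kupffer cells (5 of 5) and erythroid cells (4 of 4) were lower, and 5 of 8 markers of stellate cells and fibroblasts higher. Of 6 endothelial markers 2 were higher and 1 lower, and of 7 lymphocyte markers 1 was tested and not called. All these counts stand beside 38.9% of all genes tested called higher and 33.1% called lower. At 2 weeks the summed hepatocyte markers ran from 62800 to 154500 CPM with NICD1/Akt and from 102800 to 176600 CPM in controls, and those of cholangiocytes from 1185 to 4738 and from 87.4 to 2046 CPM, so that both overlapped. The part of these shifts and of sex in the values of the 6 genes was not tested.

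At 3 weeks, Idh2 was the single member that rose in NICD1/Akt livers, 2.68-fold, while Idh1, Idh3b, Idh3g and D2hgdh fell and Idh3a did not pass the test. The members thus did not move as a block. RNA of the mitochondrial NADP enzyme was higher and that of its cytosolic homologue lower. Within the NAD-dependent complex Idh3b and Idh3g were lower and Idh3a was not called. These directions depend in part on scaling: by total count alone the log2 fold changes of Idh1 (0.23), Idh3g (0.30) and D2hgdh (0.04) changed sign. Idh2 stayed higher and Idh3b lower. With 5 of 6 members called (1 higher and 4 lower), their share stood beside a background in which 72% of 13408 genes tested were called, 38.9% higher and 33.1% lower, by edgeR's quasi-likelihood test at an adjusted p under 0.05. Being called was therefore common at this stage, and the size and direction of each change carry the description.

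In NICD1/Akt libraries 1, 2 and 3, Idh2 was at 149, 159 and 144 CPM, and it was at 68.9, 52.9 and 61.2 CPM in control libraries 10, 11 and 12. Each NICD1/Akt library lay above each control, with group means of 150.6 ± 7.57 and 61.0 ± 8.0 CPM (SD, n = 3 each). The log2 fold change was 1.42 (SE 0.12) with an adjusted p of 1.57e-05 by edgeR's quasi-likelihood test, and 78.1% of genes tested had a lower log2 fold change. Against all 6 controls the log2 fold change was 0.78 (adjusted p = 0.0343 by edgeR) and against the 5 controls without library 32 it was 1.01 (adjusted p = 0.0114).

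The same NICD1/Akt libraries had Idh1 at 232, 226 and 243 CPM, against 358, 348 and 356 CPM in controls 10, 11 and 12. The groups did not overlap, with means of 233.7 ± 8.36 and 353.8 ± 5.10 CPM (SD, n = 3 each). The log2 fold change was -0.48 (SE 0.10, adjusted p = 0.00195 by edgeR), which is 0.717 of the control level.

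Among the subunits of the NAD-dependent enzyme, Idh3b changed the most. It was at 85.6, 70.8 and 83.6 CPM with NICD1/Akt against 184, 174 and 173 CPM in controls, a log2 fold change of -1.02 (SE 0.10, adjusted p = 5.22e-05 by edgeR). Idh3b RNA was thus at 0.492 of its control level, and only 10.8% of all genes tested had a lower log2 fold change. Idh3g, a gene of the X chromosome, was at 41.6, 35.4 and 40.7 CPM against 56, 61.3 and 52 CPM, again without overlap (log2 fold change -0.41, SE 0.10, adjusted p = 0.00623). Idh3a, the catalytic subunit, was at 31, 29.7 and 30.3 CPM against 31.1, 24.8 and 31.9 CPM. Its groups overlapped, and its log2 fold change of 0.17 (SE 0.11) had an adjusted p of 0.198 by edgeR. It passed the threshold with upper quartile factors (0.33, adjusted p = 0.0236) and with a filter of at least 10 counts in every library (0.29, adjusted p = 0.0431).

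D2hgdh was the member with the lowest level, at 9.13, 6.37 and 9.83 CPM with NICD1/Akt against 14.7, 15.3 and 13.4 CPM in controls. All 3 NICD1/Akt values lay below all 3 control values, and the log2 fold change was -0.66 (SE 0.18, adjusted p = 0.00876 by edgeR). Each of the 5 calls held when any 1 of the 6 libraries was left out. The groups did not overlap in any of the 5 members called, which was also the case for 77.8% of all genes tested. The plot of member levels shows these values library by library.

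**Figure D1:**
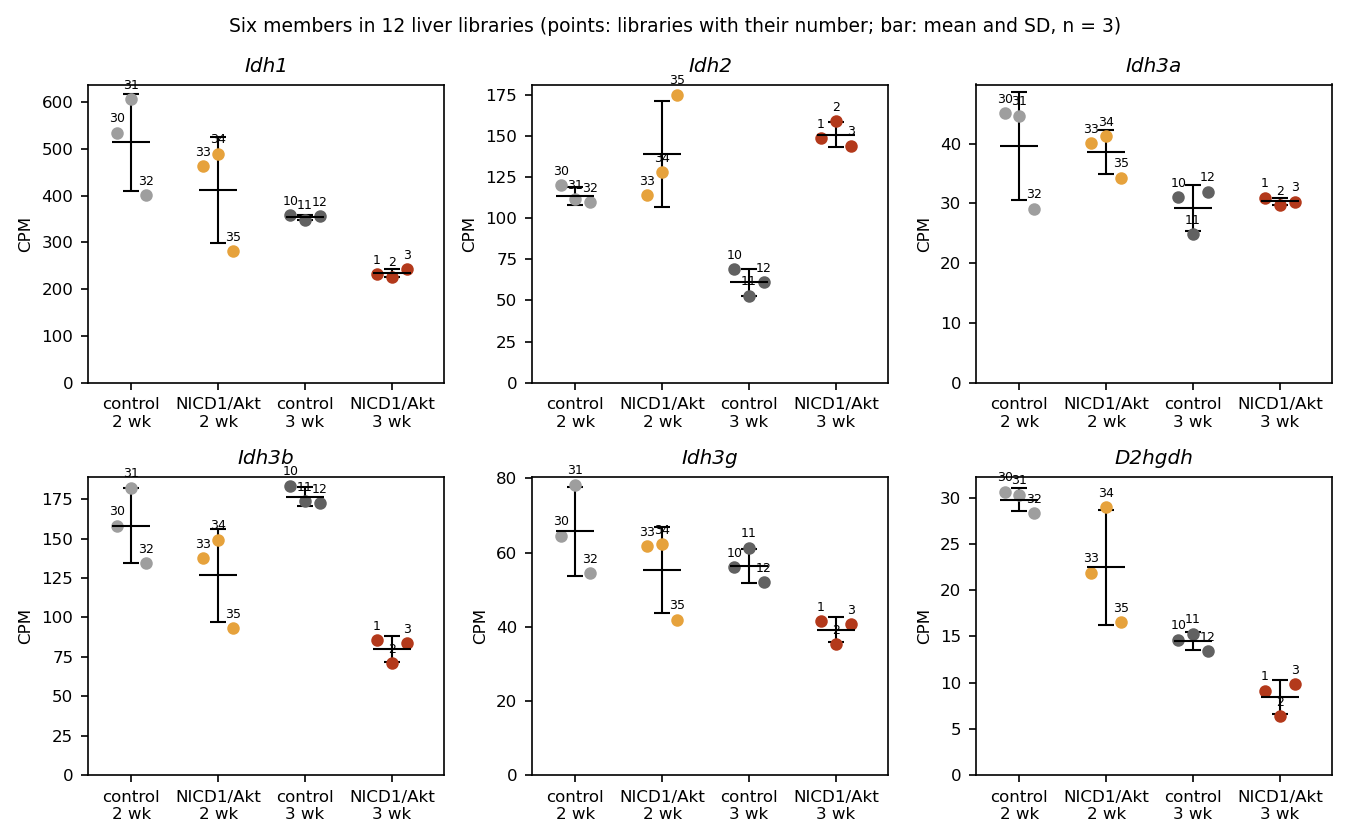
Level of each of the 6 members in CPM (TMM over 12 libraries, linear axis from 0) in the 4 groups; points are libraries with their number, and the black line and bar are the mean and SD (n = 3). At 3 weeks Idh2 with NICD1/Akt sits at 144 to 159 CPM against 52.9 to 68.9 CPM in controls, whereas Idh1, Idh3b, Idh3g and D2hgdh sit below their controls and Idh3a overlaps; at 2 weeks library 35 is the lowest of its group for these 5 genes and the highest for Idh2.

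The directions of the smaller changes depended on how the libraries were scaled. TMM sets the bulk of genes to no change, and scaling by the total count alone moved the median over all genes at 3 weeks by 0.71 on the log2 scale. Under that scaling the log2 fold change was 0.23 for Idh1 (adjusted p = 0.0595 by edgeR), 0.30 for Idh3g (adjusted p = 0.018) and 0.04 for D2hgdh (adjusted p = 0.84), the reverse of their signs under TMM. Idh2 was still higher (2.13) and Idh3b still lower (-0.32, adjusted p = 0.012 by edgeR), and Idh3a was higher (0.87, adjusted p = 0.00015). Higher genes made up 54.1% of all calls at 3 weeks under TMM, 62.7% with upper quartile factors and 87.6% with the total count. Relative to the other genes of the same library, Idh2 was up and Idh3b down under both scalings, whereas the fall of Idh1, Idh3g and D2hgdh is a fall relative to the bulk of genes.

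**Figure D2:**
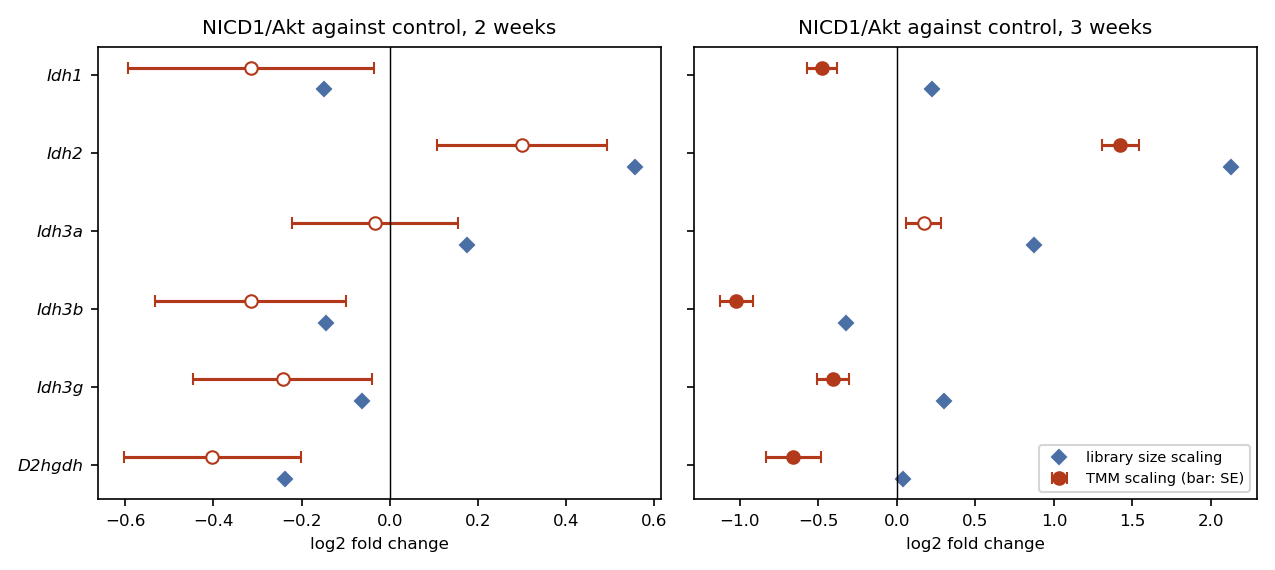
Log2 fold change (NICD1/Akt over control) of the 6 members at 2 and 3 weeks; circles with SE bars are the values under TMM scaling, filled where the adjusted p was under 0.05, and diamonds are the values when libraries were scaled by total count alone. At 3 weeks Idh2 lies to the right of 0 and Idh3b to the left under both, while Idh1, Idh3g and D2hgdh lie on opposite sides of 0.

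Ratios of 2 members within a library do not move with scaling, and 5 were compared with an exact two-sided permutation test, in which 3 libraries against 3 cannot give a p below 0.1. At 3 weeks the count of Idh2 was 0.641, 0.702 and 0.594 of that of Idh1 in NICD1/Akt libraries 1, 2 and 3 and 0.193, 0.152 and 0.172 in controls 10, 11 and 12. The balance of the mitochondrial to the cytosolic NADP enzyme was 3.76-fold higher (log2 difference 1.91, SE 0.12, exact permutation p = 0.1, the smallest possible, and 0.1 after adjustment over 5 ratios). In the NAD-dependent complex, Idh3a over Idh3b was 0.362 to 0.420 in NICD1/Akt livers and 0.143 to 0.185 in controls, 2.31-fold higher. Idh3g over Idh3b was 0.485 to 0.499 against 0.302 to 0.353, 1.54-fold higher, so the beta subunit fell relative to both of its partners. Idh2 over Idh3a, the NADP against the NAD enzyme of mitochondria, was 4.76 to 5.35 against 1.92 to 2.22, 2.38-fold higher. D2hgdh over Idh2 was 0.0401 to 0.0682 against 0.213 to 0.289, a ratio of 0.232 between the groups. In each of these 5 ratios the groups did not overlap at 3 weeks, and the exact permutation p was 0.1. Groups also did not overlap for 77.8% of single genes tested, and no such share was computed for ratios of other genes. The ratios recombine the member values given above and are no separate result.

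At 2 weeks, the ratios of Idh2 to Idh1 (0.246 to 0.623 in NICD1/Akt and 0.184 to 0.273 in controls), Idh3a to Idh3b, Idh3g to Idh3b and Idh2 to Idh3a overlapped between groups, with exact permutation p-values of 0.2 to 0.5. NICD1/Akt library 35 alone reached an Idh2 to Idh1 ratio of 0.623, in the range of the 3-week NICD1/Akt livers, while libraries 33 and 34 were at 0.246 and 0.261, below control 32 at 0.273. Without library 35 the log2 difference of this ratio fell from 0.61 to 0.18. D2hgdh over Idh2 was lower without overlap at 2 weeks too, at 0.0946 to 0.227 against 0.256 to 0.272 (exact permutation p = 0.1, 0.333 after adjustment over 5 ratios). Its log2 difference of -0.71 was -0.33 without library 35, and that of Idh2 over Idh3a went from 0.28 to 0.023.

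**Figure D3:**
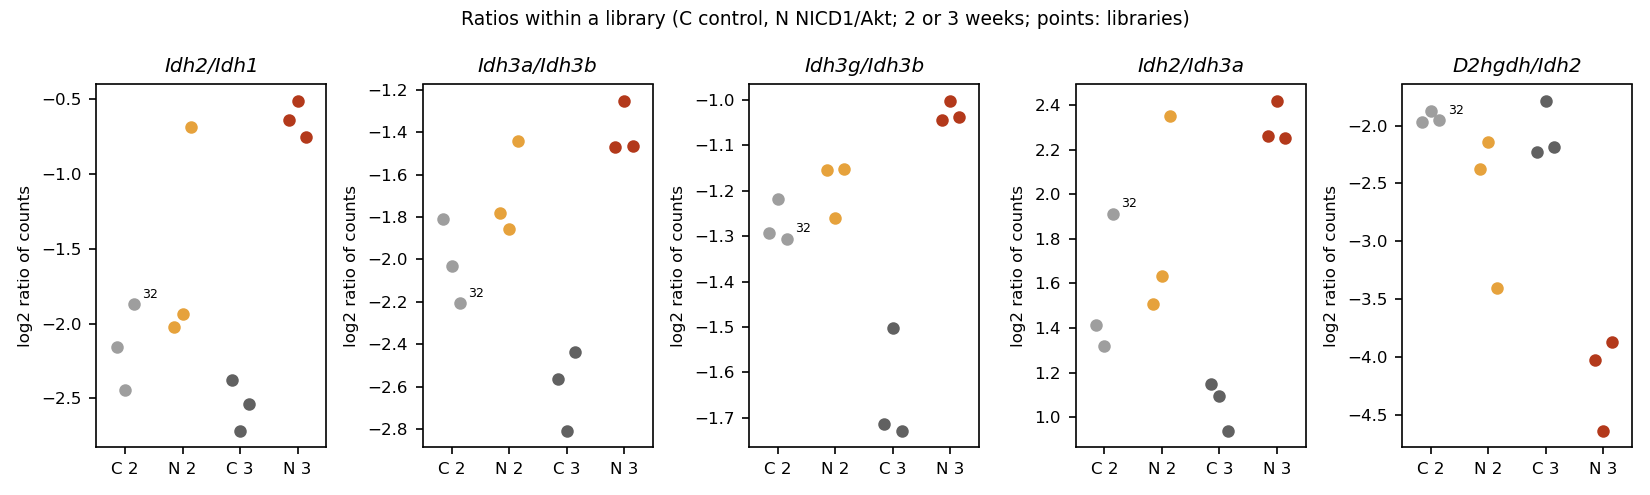
Log2 ratio of the counts of 2 members within each library, for 5 ratios; C and N mark control and NICD1/Akt, 2 and 3 the weeks, points are libraries, and control 32 is marked. At 3 weeks the groups are apart in all 5 ratios, beside 77.8% of single genes tested. Idh2 over Idh1 is at count ratios of 0.594 to 0.702 against 0.152 to 0.193. At 2 weeks only D2hgdh over Idh2 is apart.

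At 2 weeks no member was called, and neither was any other gene (0% of 13041 genes tested at an adjusted p under 0.05). At an unadjusted p under 0.05, 8.59% of genes passed by edgeR's quasi-likelihood test and 0 of the 6 members. Across all genes, DESeq2 called 11 genes higher and 11 lower, edgeR's likelihood ratio test called 7 higher and 5 lower, and none of these were members. The log2 fold changes of the members were -0.32 (SE 0.28) for Idh1, 0.30 (SE 0.19) for Idh2, -0.03 (SE 0.19) for Idh3a, -0.32 (SE 0.22) for Idh3b, -0.24 (SE 0.20) for Idh3g and -0.40 (SE 0.20) for D2hgdh, with adjusted p-values of 0.52 to 0.938. In NICD1/Akt libraries 33, 34 and 35, Idh2 was at 114, 128 and 175 CPM, against 120, 111 and 110 CPM in controls 30, 31 and 32, so that the highest value came from library 35 and the others overlapped the controls. D2hgdh was at 21.9, 29.0 and 16.6 CPM against 30.7, 30.4 and 28.4 CPM, and Idh1 at 463, 490 and 281 CPM against 534, 606 and 401 CPM. Library 35 was the lowest NICD1/Akt library for Idh1, Idh3a, Idh3b, Idh3g and D2hgdh, and control 32 was the lowest control for all 6 members. Without control 32 the member values ranged from -0.47 (Idh1) to 0.28 (Idh2), and without library 35 from -0.24 (D2hgdh) to 0.08 (Idh2), with 0 members called by edgeR in either case.

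The log2 fold change of NICD1/Akt tumor tissue over control liver differed between the stages for 2 of 6 members. Over all genes, 30.8% of 13829 tested differed (15% with a higher and 15.8% with a lower value at 3 weeks). Transgenes, injection and tissue sampled differ together between the groups, and sex cannot be told apart from stage. For Idh2 the log2 fold change at 3 weeks exceeded that at 2 weeks by 1.01 (SE 0.22, adjusted p = 0.0106 by edgeR), and for Idh3b it was lower by 0.82 on the log2 scale (SE 0.25, adjusted p = 0.0313). The call for Idh2 held in each of 12 fits that left out 1 library, with values of 0.89 to 1.21. The call for Idh3b was lost in 9 of them, without libraries 30, 32, 33, 34, 10, 11, 12, 2 or 3, with values between -0.85 and -0.69 there and a highest adjusted p of 0.0729, and also with total count or upper quartile scaling. The differences for Idh1 (-0.28), Idh3a (0.09), Idh3g (-0.27) and D2hgdh (-0.37) had adjusted p-values of 0.331 to 0.774.

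For Idh2 the change between stages passed the test within controls and not within NICD1/Akt livers. NICD1/Akt livers held Idh2 at 139.0 ± 32.1 CPM early and 150.6 ± 7.57 CPM late (SD, n = 3 each), a log2 difference of 0.11 (SE 0.16, adjusted p = 0.593 by edgeR), whereas controls were at 113.7 ± 5.53 and 61.0 ± 8.0 CPM, a log2 difference of -0.90 (SE 0.16, adjusted p = 0.00147). For Idh3b the call was in NICD1/Akt livers and not in controls: controls were at 158.2 ± 23.9 and 176.6 ± 6.11 CPM (log2 difference 0.16, SE 0.17, adjusted p = 0.496), and NICD1/Akt livers at 126.6 ± 29.5 and 80.0 ± 8.04 CPM (log2 difference -0.66, SE 0.18, adjusted p = 0.0184). This Idh3b call was not stable: with 1 library left out its adjusted p by edgeR was 0.000909 to 0.0771. Sex, stage and the table that holds the libraries cannot be told apart in these comparisons.

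Between 2 and 3 weeks D2hgdh was lower in both arms, by 1.41 on the log2 scale in NICD1/Akt livers (SE 0.21, adjusted p = 0.00141 by edgeR) and by 1.04 in controls (SE 0.21, adjusted p = 0.00282). Its controls fell from 29.8 ± 1.26 to 14.5 ± 0.97 CPM (SD, n = 3 each), so that the NICD1/Akt livers of 2 weeks, at 22.5 ± 6.24 CPM, stood above the controls of 3 weeks. In NICD1/Akt livers 3 of 6 members were called lower at 3 than at 2 weeks (D2hgdh, Idh3b and Idh1, the latter by 0.82 on the log2 scale with an adjusted p of 0.0163) where 28.4% of genes were called and 17.4% were lower, and in controls 2 of 6 (Idh2 and D2hgdh) where 37.8% were called and 20.4% were lower. In the 6 NICD1/Akt libraries alone, the calls for Idh1 (adjusted p = 0.0596) and Idh3b (adjusted p = 0.0667) were lost, as both were without library 33, 34 or 2, and that for Idh1 also without library 1.

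Levels of different genes were compared per kilobase of exon (CPM per kb), with exon lengths from GENCODE M21. In controls of 3 weeks the order was Idh1 (127.7 ± 1.84), Idh3b (51.6 ± 1.79), Idh2 (23.6 ± 3.09), Idh3g (20.9 ± 1.72), Idh3a (5.77 ± 0.77) and D2hgdh (3.38 ± 0.23 CPM per kb, SD, n = 3), and only the neighbours Idh2 and Idh3g lay within each other's spread. In NICD1/Akt livers of 3 weeks Idh2 (58.2 ± 2.93) stood next to Idh1 (84.3 ± 3.02) and above Idh3b (23.4 ± 2.35), followed by Idh3g (14.5 ± 1.25), Idh3a (5.98 ± 0.12) and D2hgdh (1.97 ± 0.43 CPM per kb). Idh2 thus moved from the third to the second place, and Idh1 kept the first in both groups. These lengths count every annotated exon, and isoforms were not measured.

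The genes around these enzymes were described by lists of pathway members. Of 15 other genes of the TCA cycle, 13 were lower at 3 weeks, 1 higher and 1 not called, beside 33.1% of all genes lower and 38.9% higher, with a median log2 fold change of -0.90 against 0.06 over all genes tested. Dld, the lipoamide dehydrogenase subunit, changed by -0.97 (adjusted p = 2.95e-05 by edgeR), Sdhb and Sdhc, subunits of succinate dehydrogenase, by -1.38 (6.44e-05) and -0.97 (9.06e-05), and the fumarase Fh1 by -1.31 (6.85e-05). The exceptions, picked out after their values were seen, were citrate synthase Cs (-0.11, adjusted p = 0.443) and Ogdhl, a homologue of the 2-oxoglutarate dehydrogenase, which rose from at most 0.345 to 1.54 to 3.68 CPM.

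Of 10 other NADPH-producing enzymes tested, 6 were higher, 3 lower and 1 not called (median log2 fold change 0.72), beside 38.9% of all genes higher and 33.1% lower. G6pdx, which opens the pentose phosphate pathway, was at 20.6 to 26.5 CPM against 8.19 to 10.6 CPM (log2 fold change 1.49, adjusted p = 4.3e-05 by edgeR). H6pd, its homologue in the endoplasmic reticulum, was lower (-1.49, 1.1e-05), as were the folate enzymes Mthfd1 (-0.93, 0.000362) and Aldh1l1 (-1.64, 0.000516). The median weighs genes alike whatever their level, and H6pd stood at 1186 to 1239 and Aldh1l1 at 1024 to 1474 CPM in controls. Under TMM, Idh2 shared its direction with the 6 higher genes and Idh1 with the 3 lower ones. With total count scaling the sign of Idh1 was reversed (0.23).

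Of 9 genes of citrate and isocitrate use outside the cycle, 6 were lower and 0 higher (median -0.78), again beside 33.1% of all genes lower, including Acly, which splits citrate (-1.22, adjusted p = 2.31e-05 by edgeR), the mitochondrial citrate carrier Slc25a1 (-1.19, 0.000102), the dicarboxylate carrier Slc25a10 (-1.04, 0.000199) and the cytosolic malate dehydrogenase Mdh1 (-1.37, 9.09e-05). Of 10 genes that make 2-oxoglutarate from glutamine and glutamate, or glutamate for other uses, 3 were higher and 7 lower (median -1.16), beside the same 38.9% and 33.1% of all genes. Aldh18a1, which draws glutamate into proline synthesis, was at 1.83 to 2.83 CPM in controls and rose to 21.5 to 28.5 CPM (log2 fold change 3.48, adjusted p = 1.91e-06). Glutamate dehydrogenase Glud1 (-1.48, 2.97e-05) and the mitochondrial aspartate aminotransferase Got2 (-1.39, 5.41e-05) fell.

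Of 10 genes that handle 2-hydroxyglutarate, D2hgdh among them, 9 were lower and 1 higher at 3 weeks (median -1.15), where 33.1% of all genes were lower. Adhfe1, a transhydrogenase that makes D-2-hydroxyglutarate from 2-oxoglutarate, was at 23.9 to 40.8 CPM against 89.3 to 105.7 CPM (log2 fold change -1.33, adjusted p = 0.000369 by edgeR). The electron transfer flavoprotein, which takes the electrons of D2hgdh, was lower in both subunits, Etfa (-1.15, 7.43e-05) and Etfb (-1.16, 0.000439), as was its oxidoreductase Etfdh (-1.27, 0.000137). Ldha (-0.83, 0.00078), Mdh1 (-1.37) and Mdh2 (-0.58, 0.000441), which can reduce 2-oxoglutarate to L-2-hydroxyglutarate as a side reaction, were lower. Phgdh, the first enzyme of serine synthesis, which can form D-2-hydroxyglutarate as a side reaction, was the exception: it was listed at 0 to 0.0871 CPM in controls and at 26.0 to 30.8 CPM in NICD1/Akt livers (adjusted p = 2.13e-07). The metabolite itself was not measured in these libraries.

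Of 27 dioxygenases that use 2-oxoglutarate, 10 were higher, 10 lower and 7 not called (median -0.11), beside 38.9% of all genes higher and 33.1% lower, so the list as a whole was near the background. The collagen lysyl hydroxylase Plod2 was at 35.6 to 51 against 1.29 to 2.42 CPM (log2 fold change 4.52, adjusted p = 1.24e-06 by edgeR), and Tet1, which oxidises 5-methylcytosine, at 6.29 to 6.70 against 0 to 0.173 CPM (adjusted p = 4.67e-06). The prolyl hydroxylases Egln3, which acts on HIF, and P4ha2, which acts on collagen, were higher by 1.44 (3.96e-05) and 1.13 (8.19e-05). At 2 weeks 0 genes of all these lists were called by edgeR's quasi-likelihood test, with medians of -0.27 for the TCA cycle and -0.24 for 2-hydroxyglutarate handling. Cs, Mdh1 and Mdh2 stand on 2 lists each, and under total count scaling the median of all genes moves by 0.71 at 3 weeks.

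**Figure D4:**
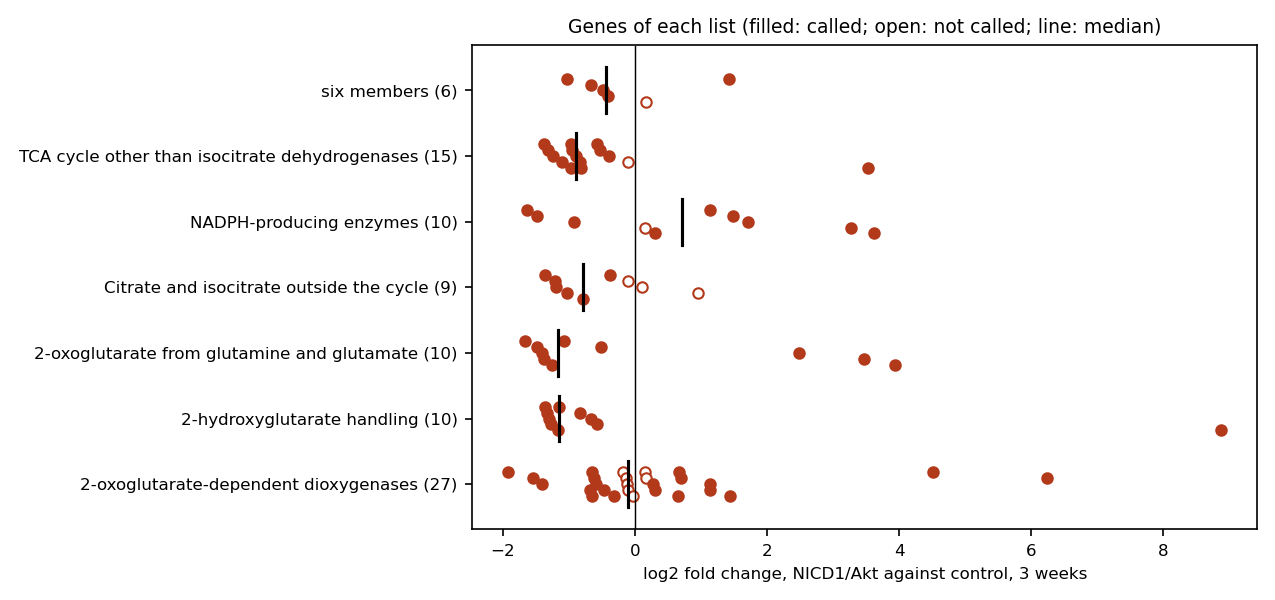
Log2 fold change at 3 weeks of the 6 members and of the genes tested in 6 pathway lists (number tested in brackets); each circle is a gene, filled where the adjusted p was under 0.05, and the line is the list's median. The TCA cycle and 2-hydroxyglutarate lists lie mostly left of 0, with medians of -0.90 and -1.15, whereas NADPH-producing enzymes have a median of 0.72 and dioxygenases one of -0.11.

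Across the 12 libraries, the log2 CPM of Idh1, Idh3g and D2hgdh moved together (Pearson's r = 0.951 for Idh1 with Idh3g and 0.923 for Idh1 with D2hgdh). Idh3b followed Idh3g (r = 0.893) and Idh1 (r = 0.806), while Idh2 ran against Idh3b (r = -0.764). The genes most like each member, of 10351 with a mean of at least 5 CPM, were Dhcr7 (r = 0.986), Dnajc30 and Ecm1 for Idh1, Cchcr1 (0.988), Zfp710 (0.984) and Pkd2 for Idh2, Eif2ak2 (0.962), Trim24 and Sult3a1 for Idh3a, Txn2 (0.995), Ndufb5 and Pgrmc1 for Idh3b, Slc29a1 (0.977), Mthfd1 and Tst for Idh3g, and Hsd3b3 (0.994), Acbd4 and Tmie for D2hgdh. These correlations are descriptions over 12 libraries that share group, stage, sex and scaling, with no test.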

How the data were processed

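RNA of 12 mouse liver libraries was measured by stranded poly(A) RNA-seq. Raw counts were deposited by the authors as whole numbers of reads per gene, 1 table a stage. The methods name TrimGalore, STAR, mm10 and HTSeq, whereas the processing notes of the submitters list STAR 2.7, Subread 2.0.6 and the build GRCm39. It was not settled which pipeline gave the counts, and coordinates come from GENCODE M21. Symbols were found in GENCODE M21 for 21573 of 21807 IDs.

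The deposited counts were analysed in R 4.3.3 with edgeR 4.0.16, which gave log2 fold changes, SE and p-values (TMM, filterByExpr with default settings, quasi-likelihood test, Benjamini-Hochberg adjustment over all genes tested). An adjusted p under 0.05 counts as called, and an adjusted p without a tool's name is from edgeR's quasi-likelihood test. The 6 libraries of a stage were fitted alone. The difference between stages and the comparisons of 3 with 2 weeks come from 1 fit of all 12 libraries in 4 groups. CPM in the text use TMM over all 12 libraries. Groups and library numbers were taken from the sample labels. No number is shared between groups, so the libraries carry no pairing. Ratios within a library were compared by an exact two-sided permutation test. The members and lists were chosen with earlier results of these data known. Named in the text are the 6 members, Notch1 and Akt1, the up to 4 genes of a list whose adjusted p was smallest at 3 weeks, all genes of 2-hydroxyglutarate handling, the 3 genes most like each member (log2 CPM with a prior count of 2) and genes that set a library apart. Of the genes under this rule, 2 are not reported here. The gene Nnt stands on a pair of IDs and was not used.

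Total counts were 13136892 to 19594839 per library. Replicates differed by more than sampling noise (chi-square per gene 4.77 to 130). The fits were also run on simulated counts in which a small set of genes was changed, as many up as down. Those runs do not probe the choice of scaling when most genes change. Alternatives were limma-voom (limma 3.58.1), DESeq2 1.42.0, the likelihood ratio test of edgeR, other scaling factors and filters, all 6 controls, 5 controls and leaving out each library.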

Additional observations from a re-analysis of the deposited data

Results flagged for a closer look

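By edgeR's quasi-likelihood test of the difference itself, the log2 fold change of NICD1/Akt over control differed between stages for 2 of the 6 members. Sex and stage cannot be told apart in this test. Over all genes, 30.8% of 13829 tested were called, so the share of members was near the background. Over the 12 fits that left out 1 library, the adjusted p by edgeR was 0.000593 to 0.0275 for Idh2 and 0.00204 to 0.0729 for Idh3b. The log2 fold change of Idh2 was higher at 3 than at 2 weeks by 1.01 (adjusted p = 0.0106), and that of Idh3b was lower, with a difference of -0.82 (adjusted p = 0.0313). With total count scaling the values were 1.57 for Idh2 (adjusted p = 0.0155) and -0.18 for Idh3b (adjusted p = 0.311). Without control 32 they were 1.05 (adjusted p = 0.0194) and -0.69 (adjusted p = 0.0632).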

How the results depend on the processing

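At 3 weeks 5 members were called in each of the 6 fits that left out 1 library. Over all genes, 72% of 13408 were called in the main fit. In the 6 fits 4928 to 5209 genes were higher and 4043 to 4357 lower. Of 576 values of single members under an alternative, 507 kept their direction and their side of the threshold. With total count scaling 4 members were called at 3 weeks (Idh2, Idh3a, Idh3b and Idh3g), beside 9076 genes higher and 1287 lower over all genes. Idh1 (0.23), Idh3g (0.30) and D2hgdh (0.037) changed sign there, and Idh3a was at 0.87. Also with this scaling the sign changed for Idh3a at 2 weeks (0.18), for the differences between stages of Idh1 (0.37), Idh3g (0.36) and D2hgdh (0.28), for Idh3a in NICD1/Akt at 3 against 2 weeks (0.11) and for Idh3b in controls at 3 against 2 weeks (-0.0063, and -0.014 with upper quartile factors). Against all 6 controls Idh3a was at -0.18 at 3 weeks and 0.18 at 2 weeks and D2hgdh at 0.031 at 2 weeks, and against 5 controls these values were -0.087, 0.14 and 0.12. Leaving out 1 library gave Idh3a values of -0.22 to 0.065 at 2 weeks and -0.014 to 0.29 for the difference between stages, and Idh2 values of -0.010 to 0.32 in NICD1/Akt at 3 against 2 weeks. The cause was not tested.

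The number of members called for the difference between stages was 2 (beside 30.8% of all genes in the main fit), 1 with upper quartile factors and 1 to 2 when 1 library was left out. For NICD1/Akt at 3 against 2 weeks it was 3 (beside 28.4% of all genes in the main fit), 1 with total count scaling, 1 with the 6 NICD1/Akt libraries alone and 1 to 5 when 1 library was left out (1 without 33, 34 or 2, 5 without control 32). For controls at 3 against 2 weeks it was 2 (beside 37.8% of all genes in the main fit), 4 with DESeq2, upper quartile factors or at least 10 counts in every library, 5 with total count scaling and 2 to 4 when 1 library was left out (4 without control 32 or NICD1/Akt 35). With 1 library left out, the log2 difference of Idh2 over Idh1 was 1.82 to 1.99 at 3 weeks (main 1.91) and 0.18 to 0.85 at 2 weeks (main 0.61). At 2 weeks that of Idh2 over Idh3a was 0.023 to 0.47 (main 0.28) and that of D2hgdh over Idh2 -0.96 to -0.33 (main -0.71).

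Counts over all genes moved as follows. At 3 weeks, 5218 genes were higher and 4432 lower. Total count scaling gave 9076 and 1287, all 6 controls 3326 higher, and 5 controls 2896 lower. At 2 weeks, 0 were called, with DESeq2 11 and 11, with the likelihood ratio test 7 and 5, and with 5 controls 867 higher and 167 lower. For the difference between stages, 2078 were higher and 2180 lower, with total count scaling 3520 and 297, with upper quartile factors 1124 lower, and with 1 library left out 1203 to 3307 and 1201 to 3494. For NICD1/Akt at 3 against 2 weeks, 1530 were higher and 2402 lower, with total count scaling 3435 and 940, with the 6 NICD1/Akt libraries alone 929 and 1275, and with 1 library left out 668 to 3125 and 1317 to 3564. For controls, 2406 were higher, and 1285 with total count scaling.

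With 3 libraries a group, an exact permutation test cannot pass 0.05. D2hgdh, at 6.37 CPM in its lowest library, carries the most counting error. No paired analysis was possible because the groups share no replicate number.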

Other observations

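The nearest protein-coding gene on each side of every member was looked up in GENCODE M21 after the members' values were seen. Of these 12 neighbours 9 were tested at 3 weeks, and all of these but Ing5 were called, where 72% of all genes tested were called. Zfp710, a zinc finger gene on the other strand whose 3′ end lies 672 bases from that of Idh2, was at 23.7 CPM in NICD1/Akt livers and 9.45 CPM in controls at 3 weeks, a log2 fold change of 1.45 (SE 0.17, adjusted p = 9.51e-05 by edgeR) beside 1.42 for Idh2. Over the 12 libraries its log2 CPM followed that of Idh2 with r = 0.984, given as a description. Sema4b, on the other side at 71448 bases, had a similar log2 fold change of 1.49 (adjusted p = 0.000172) but an r of 0.372.

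For Pikfyve, which starts 182 bases from the start of Idh1 in the opposite orientation, the log2 fold change was -0.49 (adjusted p = 0.00266 by edgeR) beside -0.48 for Idh1, with r = 0.443. Ssr4, which starts 130 bases from the start of Idh3g, had -0.43 (adjusted p = 0.0132) beside -0.41, with r = 0.458. Nop56, whose exons touch those of Idh3b, had -0.58 (adjusted p = 0.0216) beside -1.02, with r = 0.155. Acsbg1, whose 3′ end lies 215 bases from that of Idh3a, differed from its neighbour, rising from 0.253 to 7.59 CPM (adjusted p = 1.79e-05) where Idh3a did not pass the test. Ing5, 2807 bases from D2hgdh, was at 0.02 on the same scale (adjusted p = 0.905) beside -0.66.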
